A study of Mus musculus with 8 samples.

Results

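Interferon-stimulated genes are the genes that cells switch on when an interferon binds its receptor. A fixed list of 44 of them was looked up by gene symbol in the deposited table of liver genes, and all 44 were found among 19348 gene identifiers. The series compared liver of mice labelled as Stab1 knock-out (5 libraries) with liver of wild-type mice (3 libraries), all 5 weeks old and with no treatment named. The deleted gene encodes stabilin-1, which clears modified proteins from the blood and sits on the endothelium of the liver sinusoids and on some macrophages. The labels give neither strain nor sex, nor how the allele was made or whether a library is 1 animal, so p-values cover only the variation among these libraries, part of which may be technical.

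Type I interferons signal through the receptor chains IFNAR1 and IFNAR2 and the kinases JAK1 and TYK2, which activate a transcription factor complex that includes STAT2 and IRF9. This complex binds the interferon-stimulated response element (ISRE) in promoters. Interferon gamma acts mainly at gamma-activated sites (GAS). Many of the induced genes are read at a low level without infection, through tonic signalling, and in liver both hepatocytes and resident macrophages (Kupffer cells) express them.

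Promoter sequence was not used to choose the members. Windows of 300 bases from RefSeq (GRCm38.p6), from 250 bases before to 50 bases after a start site, were on hand for 34 members. An ISRE core, searched as GAAANNGAAA on both strands, stood in a window of 17 of these 34 members (50%), against 3.99% of 27025 genes. A GAS, searched as TTCNNNGAA, which reads the same on both strands, stood in 10 of 34 (29.4%), against 9.55% of all genes. The 2 motifs overlapped in 2 members (5.88%) and in 0.0851% of all genes. In 13 members the ISRE core lay upstream of the start site. A match is a description of letters, not proof of a bound site. The 9 stretches below were chosen because their ISRE cores lie upstream of the start site and span both arms of the response. They run from classical antiviral genes and the signalling factor gene Stat2 (Isg15 to Oas3) to GTPases of the interferon gamma response (Igtp to Gbp3). Each is printed on the gene's strand from 5′ to 3′, with the ISRE cores in capitals.

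Isg15, chr4:156200850-156200921, minus strand: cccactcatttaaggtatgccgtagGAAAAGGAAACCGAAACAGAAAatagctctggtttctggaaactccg
Ifit1, chr19:34640760-34640838, plus strand: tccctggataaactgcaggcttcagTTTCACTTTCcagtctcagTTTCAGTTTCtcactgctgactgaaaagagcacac
Ifit3, chr19:34583348-34583441, plus strand: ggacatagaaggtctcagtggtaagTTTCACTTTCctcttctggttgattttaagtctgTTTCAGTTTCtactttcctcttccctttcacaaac
Stat2, chr10:128270251-128270310, plus strand: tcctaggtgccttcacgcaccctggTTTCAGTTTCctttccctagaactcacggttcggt
Rsad2, chr12:26456538-26456597, minus strand: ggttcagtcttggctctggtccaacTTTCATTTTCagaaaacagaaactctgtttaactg
Oas3, chr5:120777700-120777759, minus strand: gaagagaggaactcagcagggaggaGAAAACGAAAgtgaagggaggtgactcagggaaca
Igtp, chr11:58199497-58199555, plus strand: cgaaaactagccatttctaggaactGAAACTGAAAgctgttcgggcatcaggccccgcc
Irgm1, chr11:48871421-48871475, minus strand: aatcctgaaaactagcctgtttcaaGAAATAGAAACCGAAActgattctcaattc
Gbp3, chr3:142559974-142560039, plus strand: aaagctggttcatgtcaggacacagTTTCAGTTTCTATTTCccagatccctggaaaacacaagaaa

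Of these 9, Isg15 holds 3 cores that run into each other, Ifit1, Ifit3, Irgm1 and Gbp3 hold 2 each, and the others hold 1.

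The libraries held 4.85 to 10.8 M (mega) counted reads, knockout library 1 being the shallowest. Stab1 itself had 5 to 16 reads in each knockout and 474 to 594 in each wild-type library. Knockout library 1 stood apart in a second way, with 3 Xist reads against 4445 to 8222 in the others, while Ddx3y, a gene of the Y chromosome, had 320 reads there and 0 to 4 elsewhere. By these reads it came from a male and the others from females. Hepatocyte markers marked every library as liver: the summed level of 8 markers led by albumin was 78140 to 136600 CPM (each library's reads brought to a common total) in knockout and 150900 to 159000 CPM in wild-type libraries. The summed level of 11 Kupffer cell markers was 603 to 871 against 513 to 689 CPM, and that of 8 sinusoidal endothelial markers 272 to 312 against 305 to 390 CPM. Erythroid markers (6 genes) summed to 71.8 to 195 CPM in knockout and 67.2 to 70.8 CPM in wild-type libraries, without overlap. Neutrophil markers (6 genes) summed to 9.36 to 16.3 against 4.51 to 10.7 CPM, so the genotypes overlapped. Among them S100a9, at 3.72 to 7.62 against 1.98 to 3.61 CPM, and Ltf were higher in knockout liver without overlap. The genotypes overlapped in S100a8, Ngp, Camp and Retnlg, and the mean of Retnlg was lower in knockout liver. Markers of plasmacytoid dendritic cells, a main source of type I interferon, summed to 0.660 to 2.54 against 0.645 to 1.13 CPM over 6 genes, near the floor of 3 reads (0.278 to 0.619 CPM per library), with none at 0 in all libraries. Their part in the results below was not tested. In whole tissue, fewer cells of a type and less RNA per cell cannot be told apart.

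All 44 members were detected, and 43 had reads in every library. Levels between genes are compared as RPKM (reads scaled to gene length and library total), averaged over the 8 libraries with SD. The membrane proteins led. Ifitm3, which blocks virus entry at endosomes, stood at 430 ± 81.5 RPKM (SD, n = 8), and Bst2, the tether that holds budding virus at the cell surface, at 219 ± 22.4 RPKM. Iigp1, a GTPase that attacks the vacuoles of intracellular parasites, followed at 166 ± 29.1 RPKM. These were the 3 members above 100 RPKM. The remaining levels were far lower: 14 members lay between 10 and 100 RPKM, 24 between 1 and 10, and 3 below 1.

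The middle tier held the GTPase Igtp at 40.5 ± 9.66 RPKM, the secreted glycoprotein gene Lgals3bp at 36.8 ± 12.3, the transcription factor Irf7 at 34.9 ± 9.36 and the GTPase Irgm1 at 32.1 ± 7.30. Neighbours in that order differed by less than their SD. The oligoadenylate synthetases, which activate RNase L, ran from 0.770 RPKM (Oas3) to 5.18 RPKM (Oasl1, a catalytically inactive relative), and the resistance GTPases Mx1 and Mx2 stood at 1.03 ± 0.281 and 2.36 ± 0.600 RPKM. The 3 lowest members were Oas3, Sp110 at 0.518 and Sp140 at 0.324 RPKM.

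**Figure D1:**
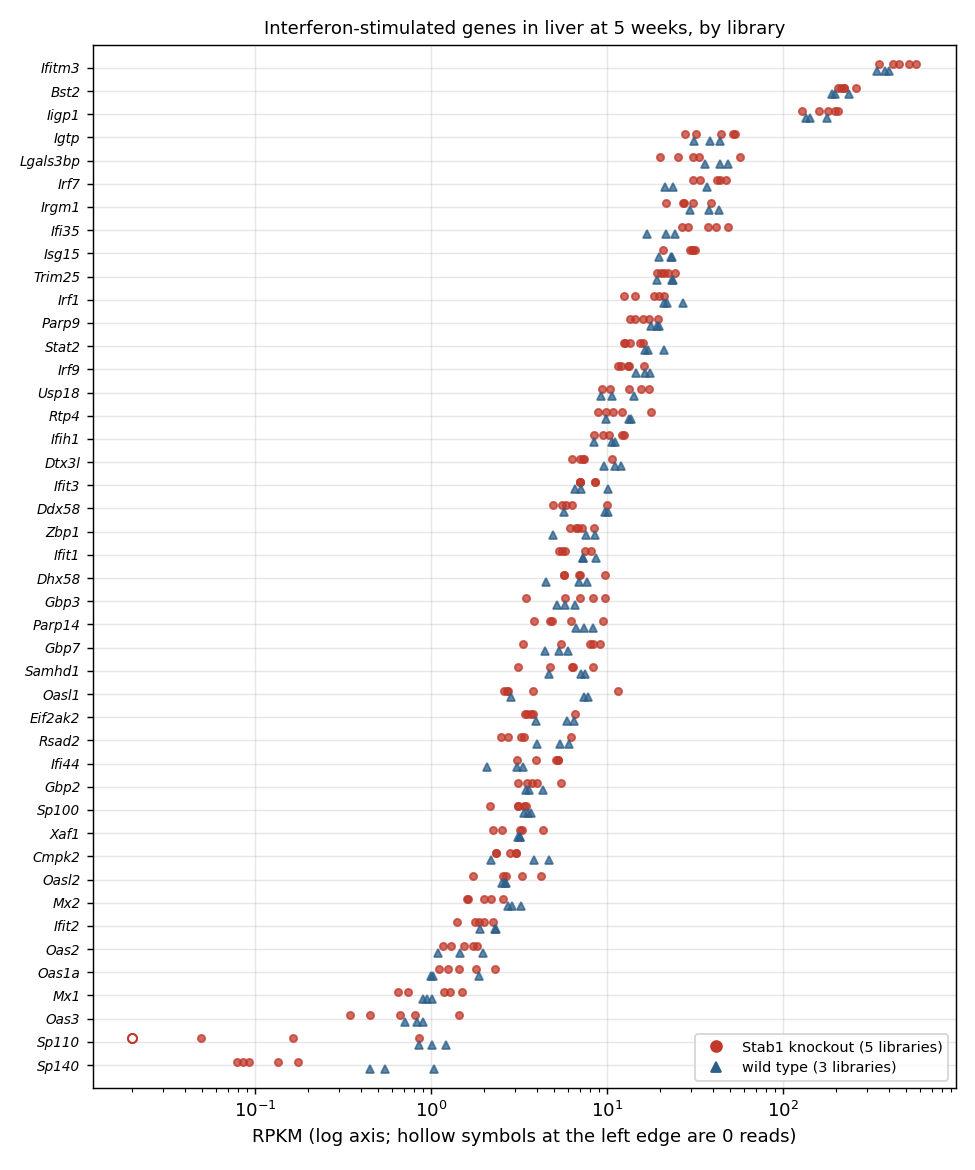
Level of the 44 members in each library in RPKM on a log axis, sorted by the mean of 8 libraries; red circles are the 5 knockout and blue triangles the 3 wild-type libraries, and hollow circles at the left edge stand for 0 reads. Ifitm3, Bst2 and Iigp1 lie above 100 RPKM in every library, and the genotypes lie apart at the bottom for Sp140.

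Knockout was then compared with wild type to ask whether loss of Stab1 went with a shift of the interferon response at this age. With all libraries in the fit, no common shift was seen. Over 44 tested members the median log2 fold change (knockout over wild type) was -0.07, with 18 positive and 26 negative, beside a median of -0.01 over 12338 tested genes, of which 49.1% were positive. No member was called at an adjusted p below 0.05 in edgeR's quasi-likelihood test, in which 0.227% of all genes were called. At an unadjusted p below 0.05 there were 10 members (3 higher, 7 lower; 22.7%), against 13.6% of all genes, and DESeq2 called 1 member, Sp140 (background 0.884%). In 6 members the genotypes did not overlap in CPM (13.6%, against a background of 6.65%), 5 of them lower in knockout liver (background 3.61%) and 1 higher (background 3.04%). These 6 were Sp110, Sp140, Sp100, Mx2 and Stat2 on the lower side and Ifi35 on the higher side. Sp110 and Sp140 passed the filter on low counts only through the wild-type group. Without them 4 of 42 members did not overlap (9.52%, 3 of them lower), and 8 of 42 (19.05%) had an unadjusted p below 0.05. The member median varied with the libraries in the fit, from -0.20 to -0.03 when each library was dropped in turn. Without knockout library 1 it was -0.20, beside -0.02 over all tested genes, with 16 of 44 members positive. Without wild-type library 2 it was -0.19, beside -0.01 over all tested genes, with 17 positive. Without knockout library 1, 18 of 44 had an unadjusted p below 0.05 in edgeR, Sp110 and Sp140 among them. The share of all genes at that bound in that fit is not given, so the number is not read as a result about the members.

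The size of a change that these data could have missed differs by gene. For 34 members the 95% interval of the fold change lay wholly within 2-fold in either direction (77.3%, against 72.6% of all tested genes). The intervals of the other 10 reached past 2-fold: those of Sp110, Sp140, Mx2, Oasl1, Oas3 and Rsad2 on the lower side, and those of Ifi35, Ifi44, Irf7 and Gbp7 on the higher side. A member that was not called has therefore not been shown to be equal in the genotypes.

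**Figure D2:**
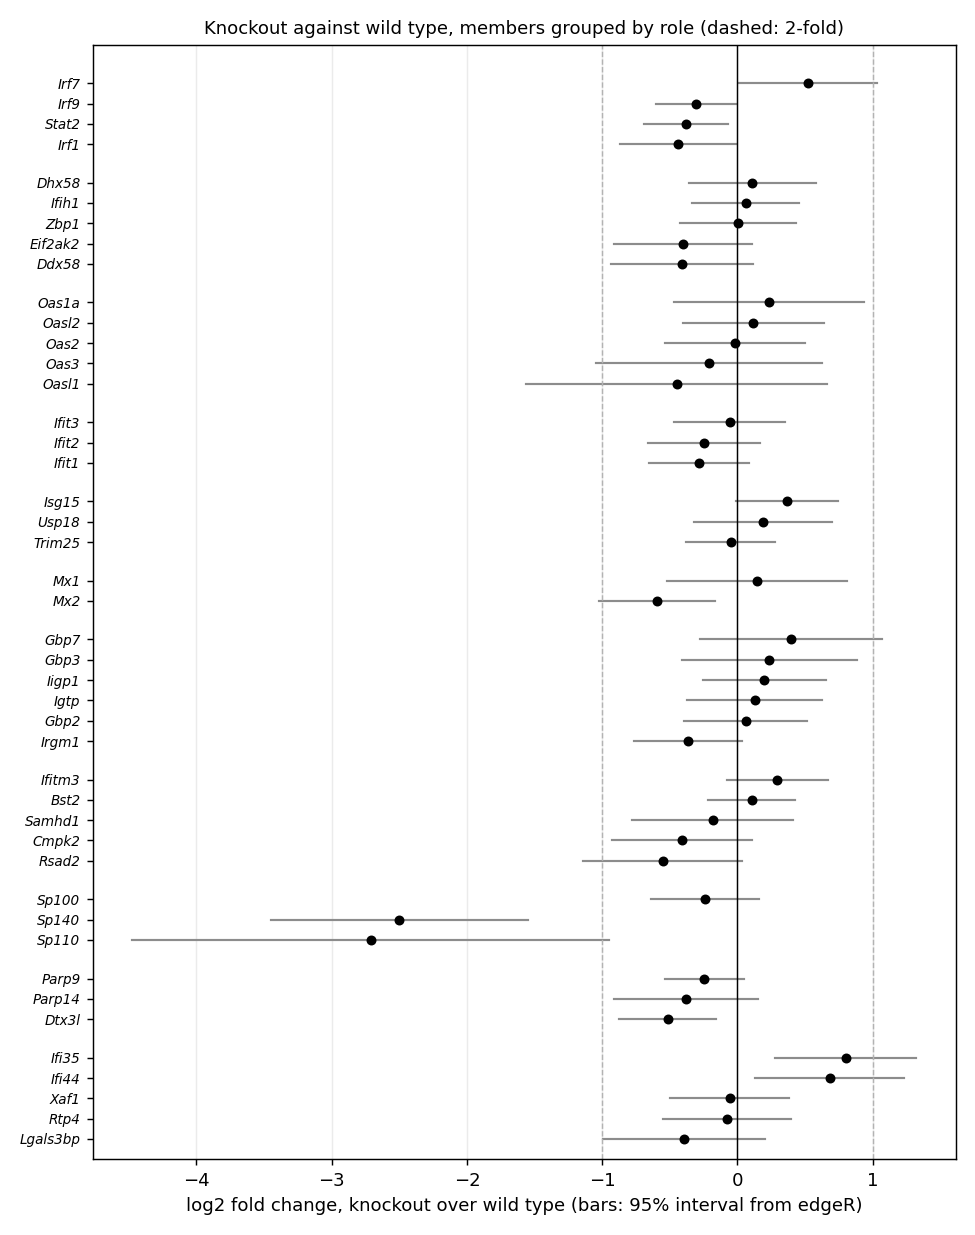
Log2 fold change of each member, knockout over wild type (dots), with its 95% interval from edgeR (bars), grouped by role; dashed lines mark a 2-fold change. Of the 44 members, 36 lie within 0.5 of 0, while Sp140 and Sp110 stand near -2.5 and -2.7.

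Sp110 and Sp140 gave the largest differences among the members. They encode proteins of nuclear bodies that bind chromatin and are neighbours on chromosome 1, where Sp100, a founding nuclear body gene, is the next coding gene beyond Sp140 in the RefSeq order. Sp140 (identifier 434484) held 1, 3, 2, 4 and 2 reads in knockout libraries 1 to 5 and 14, 27 and 11 reads in wild-type libraries 1 to 3. Every knockout library thus lay below every wild-type library, at 0.275 ± 0.102 CPM (SD, n = 5) against 1.64 ± 0.745 CPM (SD, n = 3). This came to -2.50 on the log2 scale (SE 0.43), with an edgeR adjusted p of 0.0601. The call depended on the setting: the edgeR adjusted p was 0.0439 without knockout library 1, 0.0326 without wild-type library 3 and up to 0.346 with another library left out, and DESeq2 gave an adjusted p of 0.0198, whereas edgeR with coverage evenness as a term (how evenly reads covered genes in a library) gave 0.289. The covered part of the gene was 2.03% to 6.16% in the knockout and 18.9% to 28.7% in the wild-type group.

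Sp110 (identifier 109032) held 8, 0, 1, 3 and 0 reads in the knockout libraries and 21, 18 and 24 in the wild-type libraries. Knockout library 1, the male one, gave 8 of the 12 knockout reads. Its level of 1.57 CPM was close to the wild-type range of 1.66 to 2.40 CPM, whereas the other 4 knockout libraries lay between 0 and 0.318 CPM. With all libraries the log2 fold change was -2.71 (SE 0.79, edgeR adjusted p = 0.301), and without knockout library 1 it was -4.10 (adjusted p = 0.0199). Sp110 and Sp140 were the members called in that fit, in which 0.928% of all genes were called. Both genes passed the filter on low counts only through the wild-type group, where they are high, so nothing is read from their count against that background. Reads of this family can also be shared with near-identical copies on the same chromosome, so the levels are uncertain.

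The neighbour Sp100 did not share the size of that difference. It stood at 6.52 ± 0.982 against 7.68 ± 0.436 CPM (log2 fold change -0.24, SE 0.18, edgeR adjusted p = 0.539), and its genotypes were separated only by the gap between 7.17 and 7.19 CPM. None of the promoter windows of these 3 genes holds an ISRE core or a GAS as searched here.

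**Figure D3:**
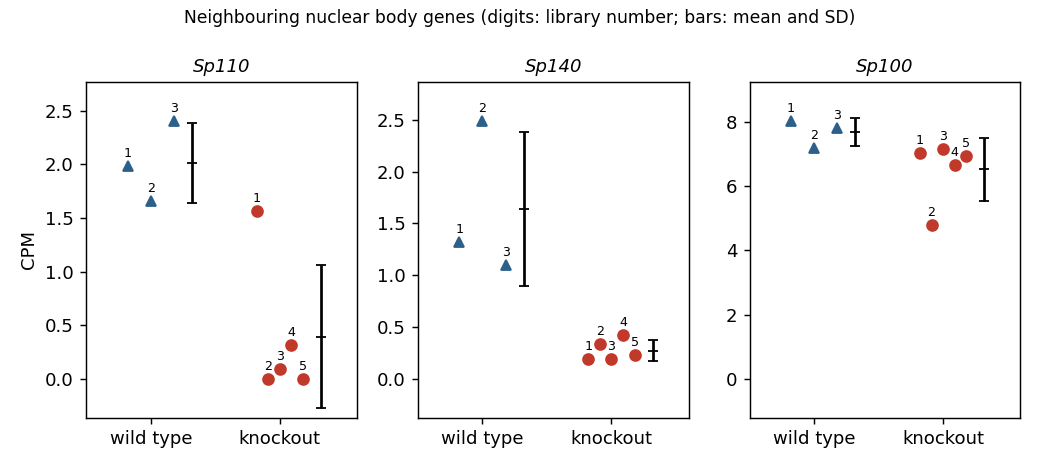
CPM of the neighbouring genes Sp110, Sp140 and Sp100 in each library (triangles, wild type; circles, knockout; digits, library number), with mean and SD as bars. Sp140 is lower in all 5 knockout libraries, Sp110 in knockout libraries 2 to 5 but hardly in library 1, and Sp100 nearly overlaps.

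The transcription factors that carry the signal did not move as a block. Stat2, Irf9 and Irf1 had negative and Irf7 a positive fold change, each with an unadjusted p below 0.05 and none called. Stat2 stood at 66.9, 69.7, 59.1, 54.5 and 57.8 CPM in knockout libraries 1 to 5 and at 75.8, 91.7 and 73.1 CPM in wild-type libraries 1 to 3. The genotypes did not overlap (log2 fold change -0.38, SE 0.14, edgeR adjusted p = 0.333). Its partner Irf9 stood at 33.6 ± 3.73 against 41.5 ± 3.45 CPM (-0.31, SE 0.13), and knockout library 1, at 39.3 CPM, lay above wild-type library 3, at 38.0 CPM. Irf9 is the 1 member on chromosome 14, which also carries Stab1.

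Irf1, a factor induced by interferon gamma, was at 37.1 ± 8.44 against 50.5 ± 6.55 CPM (-0.44, SE 0.19). Irf7, the factor that amplifies interferon alpha production, was at 59.9, 80.9, 57.0, 81.9 and 91.4 CPM in the knockout libraries and 40.4, 44 and 70.7 CPM in the wild-type libraries. Wild-type library 3 lay inside the knockout range. The value of 0.52 on the log2 scale (SE 0.23, edgeR adjusted p = 0.358) lay between 0.37 and 0.81 when each library was dropped in turn. With coverage evenness as a term of the fit it was 0.22 (edgeR adjusted p = 0.861).

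None of the sensors of foreign nucleic acid was called, either by edgeR or by DESeq2, and none had an unadjusted p below 0.05 in edgeR. The log2 fold changes were 0.06 for Ifih1, which encodes MDA5, -0.41 for Ddx58, which encodes RIG-I, 0.11 for Dhx58, their relative LGP2, and 0.00 for Zbp1, a sensor of Z-form nucleic acid. The kinase gene Eif2ak2, whose product PKR halts translation on double-stranded RNA, was at -0.40. Ifih1, the most abundant of them at 10.4 ± 1.56 RPKM, stood at 54.0, 70.7, 45.8, 52.0 and 69.6 CPM in knockout and 62.0, 58.7 and 47.2 CPM in wild-type libraries, so that the genotypes overlapped fully. All 5 intervals lay within 2-fold.

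Among the antiviral effectors, the IFIT genes, whose products bind foreign RNA ends, had small negative values. Ifit3 was at 15.2 ± 1.94 against 15.9 ± 3.98 CPM (log2 fold change -0.06, SE 0.18, edgeR adjusted p = 0.891), Ifit1 at -0.29 and Ifit2 at -0.25 on the log2 scale. Reads of Ifit1 and Ifit3 can be shared with near-identical paralogs beside them. The OAS family was mixed, with 2 of 5 positive. Oasl1 varied most within a genotype: it stood at 23.3 CPM in knockout library 1 and at 5.66 to 8.05 CPM in the other knockout libraries, and at 15.9, 16.4 and 6.11 CPM in wild-type libraries 1 to 3. Its log2 fold change was -0.45 (SE 0.50, edgeR adjusted p = 0.672) with all libraries and -1.02 without knockout library 1 (adjusted p = 0.0987).

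Mx2 was lower in each knockout library, at 5.87, 5.02, 3.87, 5.29 and 4.04 CPM against 6.71, 7.83 and 7.11 CPM. Its log2 fold change was -0.59 (SE 0.19, edgeR adjusted p = 0.331), whereas Mx1, its relative, was at 0.14 (SE 0.30). The Mx genes of many laboratory mouse strains are known to carry inactivating mutations, and the strain here is not given. Rsad2, which encodes viperin, and its chromosomal neighbour Cmpk2, a nucleotide kinase gene, were at -0.55 (SE 0.26) and -0.41 (SE 0.23). The nucleotide-depleting enzyme gene Samhd1 was at -0.18.

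Neither of the 2 most abundant members was called by edgeR with all libraries. Ifitm3 stood at 352, 281, 294, 334 and 234 CPM in knockout and 261, 219 and 251 CPM in wild-type libraries (log2 fold change 0.29, SE 0.17, edgeR adjusted p = 0.431), and Bst2 at 195 ± 17.4 against 181 ± 23.8 CPM (0.10, SE 0.14, adjusted p = 0.734). The genotypes overlapped in both genes. Both values turned negative once the trend of counts on gene length was removed, at -0.09 for Ifitm3 and -0.20 for Bst2. With coverage evenness as a term of the fit, Ifitm3 was at 0.34 and Bst2 at -0.02.

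The ubiquitin-like modifier gene Isg15 was at 21.7, 24.0, 15.7, 23.7 and 23.2 CPM in knockout and 15.1, 17.5 and 17.6 CPM in wild-type libraries. Knockout library 3 lay within the wild-type range and the other 4 above it (log2 fold change 0.37, SE 0.17, edgeR adjusted p = 0.368). With the length correction its log2 fold change was 0.00. Usp18, which removes ISG15 from proteins and damps receptor signalling, was at 0.19 (SE 0.23), and Trim25, a ubiquitin ligase that acts with RIG-I, at -0.05 (SE 0.15).

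Of the 6 GTPases of the interferon gamma response none was called. Their median log2 fold change was 0.16, with 5 of 6 positive, whereas with coverage evenness as a term of the fit 2 of 6 were positive and the values ran from -0.19 to 0.02. Iigp1 (identifier 60440) stood at 385, 667, 499.8, 568 and 645 CPM in knockout and 450.1, 423 and 571 CPM in wild-type libraries. Knockout library 1 was the lowest of all 8 and knockout library 2 the highest (log2 fold change 0.20, SE 0.20, edgeR adjusted p = 0.649). Igtp was at 86.3 ± 22.6 against 78.9 ± 13.6 CPM (0.13, SE 0.23), and the guanylate-binding protein genes Gbp7, Gbp3 and Gbp2 were at 0.40, 0.24 and 0.06. Gbp7 and Gbp3, adjacent genes on chromosome 3, had their lowest level in knockout library 1, at 17.6 and 8.61 CPM. The exception was Irgm1, which regulates the other IRG GTPases, at 64.4 ± 11.8 against 82.9 ± 14.6 CPM (-0.37, SE 0.18).

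Dtx3l, Parp9 and Parp14 are consecutive genes on chromosome 16 whose products act together in ADP-ribosylation and ubiquitination. All 3 had negative values. Dtx3l stood at 52.2, 33.7, 38.0, 37.9 and 37.3 CPM in knockout and 63.0, 57.0 and 50.4 CPM in wild-type libraries. Knockout library 1 alone lay among the wild-type values (log2 fold change -0.52, SE 0.16, edgeR adjusted p = 0.325; -0.64 and 0.0574 without that library). Parp9 was at 57.2 ± 6.37 against 67.8 ± 2.92 CPM (-0.24, SE 0.13), and Parp14 at -0.38 (SE 0.24).

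Of the remaining members, Ifi35 and Ifi44 had the largest positive values. Ifi35, whose product binds the partner NMI, stood at 37.0, 67.8, 36.1, 50.6 and 58.8 CPM in knockout and 23.2, 29.4 and 33.8 CPM in wild-type libraries. Its knockout values all lay above its wild-type values (log2 fold change 0.80, SE 0.24, edgeR adjusted p = 0.301). Ifi44 was at 10.9, 15.8, 8.86, 15.4 and 15.5 CPM against 9.82, 5.99 and 9.12 CPM (0.68, SE 0.25, adjusted p = 0.333), with knockout library 3 inside the wild-type range. Lgals3bp was at 71.2 ± 27.4 against 93.4 ± 13.9 CPM (-0.40, SE 0.27), its knockout values running from 44.5 CPM in library 2 to 117 CPM in library 1. Xaf1, a pro-apoptotic gene, and Rtp4, a chaperone gene of membrane receptors, were at -0.06 and -0.08.

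DESeq2 without knockout library 1 was the setting that called the most members, 7 of the 43 with an adjusted p. They were Ifi35, higher, and Dtx3l, Parp14, Lgals3bp, Rsad2, Oasl1 and Sp110, lower. The background in that fit was 8.61%, with 1057 of 12280 genes with an adjusted p called. Among the libraries of that fit Sp110 is high only in the wild-type group, so nothing is read from the 7 against that background. In Dtx3l, Parp14, Lgals3bp, Rsad2 and Oasl1, knockout library 1 and wild-type libraries 1 and 2 lay above all other libraries, an order described next. Leaving out knockout library 1 removes the only knockout library among these, and its part in the calls was not tested.

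The members also differed between libraries of 1 genotype, and part of that went with how evenly reads covered genes. Evenness was taken as the median percent of gene length covered, over genes of 2000 to 4000 bases with 100 to 200 reads in that library. It was 81.2% in knockout library 1, 82.2% and 82.1% in wild-type libraries 1 and 2, and 77.1% to 79.8% in the other 5, so wild-type library 3, at 78.4%, sat among knockout libraries. In 11 members (25%) the 3 most even libraries all lay above the other 5, against 13.9% of all tested genes. These were Ddx58, Eif2ak2, Oasl1, Rsad2, Samhd1, Irf9, Irgm1, Parp9, Parp14, Dtx3l and Lgals3bp. In Iigp1 and Bst2 the same 3 libraries lay below the other 5 (4.55%, against 14.2%).

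Ddx58 shows the pattern. It stood at 46.5, 50.5 and 47.7 CPM in knockout library 1 and wild-type libraries 1 and 2, and at 25.2, 31.0, 28.9, 28.2 and 28.6 CPM in knockout libraries 2 to 5 and wild-type library 3. These 11 genes were picked for that order, and wild-type libraries make up most of the even ones, so values nearer 0 or higher in a fit with evenness as a term follow from that choice and are not given as a result. In that fit Sp140 and Sp110 were at -2.26 (edgeR adjusted p = 0.289) and -2.48 (adjusted p = 0.596) on the log2 scale. Over all 44 members, 6 in place of 10 had an unadjusted p below 0.05 in it, and none was called (24 of 12338 genes were called, 0.19%). The share of all genes at that unadjusted p in this fit is not given, so the lower number is not read as a result about the members.

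**Figure D4:**
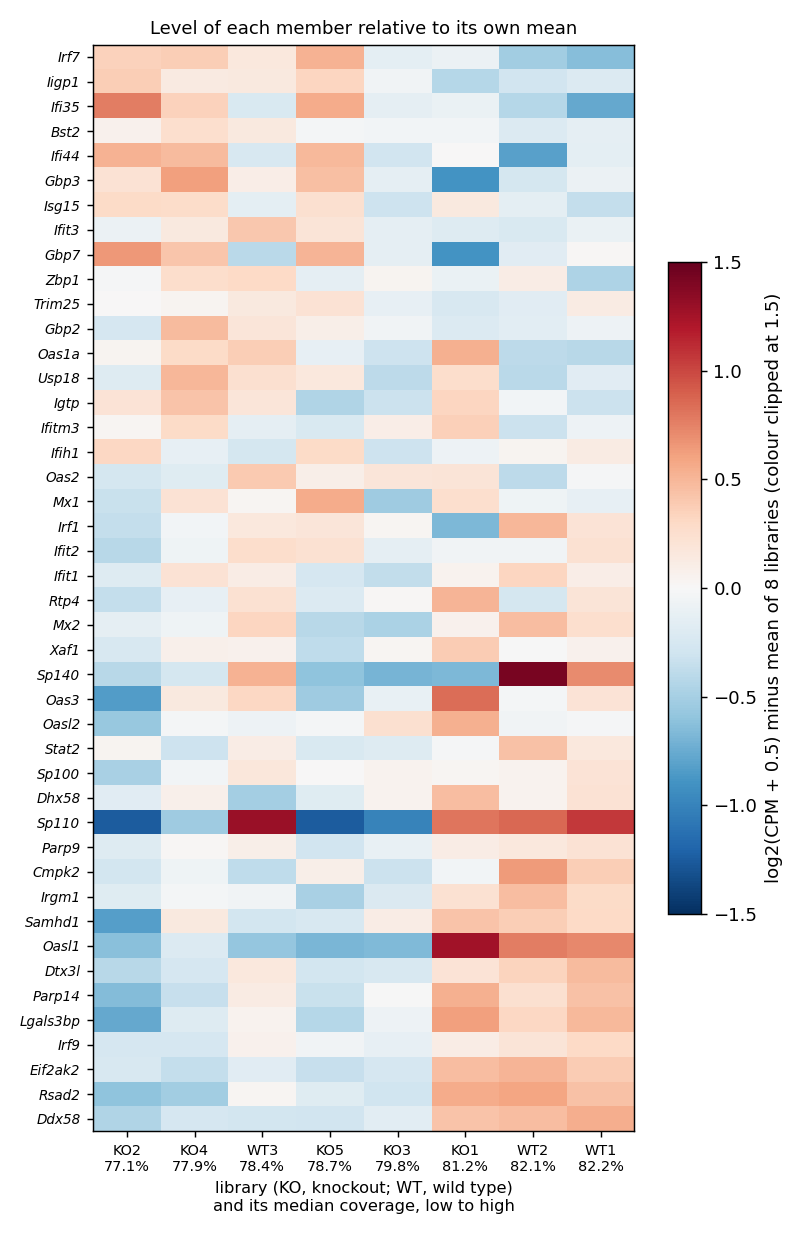
Log2(CPM + 0.5) of each member minus its mean over 8 libraries (red, higher; blue, lower), with libraries from the least to the most even coverage and genes sorted by how closely they follow it. Genes at the bottom, from Oasl1 to Ddx58, are high in knockout library 1 and wild-type libraries 1 and 2, and wild-type library 3 resembles the knockout libraries there.

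Gene length went with the direction of change. Of 11 members shorter than 2000 bases 8 were positive (2620 of 3669 over all tested genes of that length). Their median log2 fold change was 0.19, against 0.18 over those genes. Of 23 members of 2000 to 4000 bases 8 were positive (2243 of 5095), with a median of -0.24, against -0.04. Of 10 members longer than 4000 bases 2 were positive (1193 of 3574), with a median of -0.30, against -0.13. Across the 44 members Spearman's rho of log2 fold change with length was -0.27, and across all 12338 tested genes, which share the same libraries, it was -0.35. These are descriptions across genes, which are not replicates. The 17 members with an ISRE core had a median log2 fold change of 0.06 (9 positive), and the 17 with a window but no core had a median of -0.25 (4 positive). The 10 members without a window had a median of -0.01 (5 positive). Sp110 and Sp140 are among those without a core, and the part of gene length in these medians was not tested.

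Other genes of the pathway were read from a list of 62, of which 45 were in the table and 36 were tested. None was called by edgeR (background 0.227%) or by DESeq2 with all libraries (background 0.884%). In edgeR 1 of them, Irak4, had an unadjusted p below 0.05 (2.78%, against 13.6% of all genes). Of the 36, 9 were positive (25%, against 49.1%), with a median log2 fold change of -0.13, beside -0.01 over all tested genes. The genotypes did not overlap in 2 of 36 (5.56%, against 6.65%), both lower in knockout liver (background 3.61%). Messages for the interferons in the table were hardly seen. Of 21 listed, 4 were in the table, and over all 8 libraries Ifnb1 and Ifnz had 0 reads (which allows up to 3), Ifng 1 and Ifnk 2. The other listed interferons, all interferon alpha genes among them, had no row, so their level is not known. Of 6 receptor genes in the table, Ifnlr1, for a chain of the interferon lambda receptor, had 24 reads over all libraries and was not tested. The other 5 were all positive and none was called; with evenness as a term of the fit, 3 of the 5 were positive. Ifnar2 was at 76.7 against 61.2 CPM (log2 fold change 0.32, SE 0.16, edgeR adjusted p = 0.394) and Ifngr2 at 0.33 (SE 0.25).

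Downstream of the receptors, Stat3 was at -0.43 (SE 0.19, edgeR adjusted p = 0.366). The receptor kinase gene Tyk2 was at -0.23 (SE 0.14). Of the regulatory factors outside the 44, Irf5 was at -0.48 (SE 0.28) and Irf3 at -0.11 (SE 0.12). Among nucleic acid receptors Aim2 was at -0.41 (SE 0.28) and Tlr8 at -0.61 (SE 0.45). Of adaptors and kinases upstream of interferon, Irak4 was at 4.91 against 8.51 CPM (-0.80, SE 0.23, adjusted p = 0.301), without overlap of the genotypes, and Myd88, the adaptor it binds, at 16.9 against 13.2 CPM (0.35, SE 0.17). All 7 tested inhibitors of the pathway had negative values, none called, and with evenness as a term 6 of 7 did. Those with the smallest p were Ptpn11 at -0.28 (SE 0.15) and Pias4 at -0.24 (SE 0.19). The lowest was Socs3 at -0.32 (SE 0.61), which was at 0.95 without wild-type library 3.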

How the data were processed

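The authors deposited a gene table that holds, per the file headers, each gene's count of unique reads in each library, the percent of gene length covered, and RPKM. RPKM recomputed from counts, header totals and lengths equalled the deposited RPKM values. Aligner, counting method, genome build, annotation and strandedness are not stated in the sources at hand. Reads were summed for 113 identifiers that stand on several rows (Sp110 among the members), and a dash was read as 0. Counts were tested in R 4.3.3 with edgeR 4.0.16: filterByExpr at default settings, TMM scaling, quasi-likelihood F test of 5 knockout against 3 wild-type libraries, Benjamini-Hochberg adjustment over 12338 genes. All 44 members passed the filter. SE is the log2 fold change over the square root of F, and 95% intervals use the test's degrees of freedom. DESeq2 1.42.0 was an alternative. Figures were drawn with matplotlib 3.10.9.

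Promoter windows came from RefSeq (GRCm38.p6), in which all 44 members were found by identifier. Coordinates belong to that build only. The members, the lists and the tests were chosen with earlier results of these data known. Members given with values in every library or with SD were the 10 with the smallest p, the 6 with the highest RPKM and the highest of each role, and of the other pathway genes up to 2 per role with the smallest p. Irgm1 and Mx1 (given with SD), Ddx58, Ifit1, Ifit2 and other members given more briefly, and the Ifi35 and Ddx58 patterns by library were chosen after their values were seen. The values of 1 gene of the pathway list are not reported here. Counting floors cover counting error only.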

Additional observations from a re-analysis of the deposited data

Results flagged for a closer look

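In 6 of 22 genes looked at, 1 of the 5 knockout libraries lay apart from the other 4, by a gap of more than 0.71 of the group's range (chance flags about 1 group in 20). Knockout library 1 was the highest in 3 of them: Oasl1 at 23.3 CPM (next 8.05), Sp110 at 1.57 CPM (next 0.318) and Dtx3l at 52.2 CPM (next 38.0). Knockout library 2 was the lowest for Sp100 at 4.79 CPM (next 6.67) and for Stab1 at 0.557 CPM (next 1.27), and knockout library 3 the lowest for Isg15 at 15.7 CPM (next 21.7).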

How the results depend on the processing

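Leaving out 1 library gave 13 to 114 called genes in place of 28 (114 without knockout library 1; 15, 13 and 93 without wild-type libraries 1, 2 and 3), 0 to 2 called members in place of 0, and member medians of -0.20 to -0.03. The replicate numbers do not pair the libraries (correlations of same-numbered deviations 0.12, -0.15 and -0.15). With the replicate number as a block, 8 genes and 0 members were called, with a member median of -0.18. DESeq2 called 130 genes and 1 member, and without knockout library 1 it called 1057 genes, 7 members and 1 other pathway gene (Irak4). The 9 sign changes among 330 values of 22 named genes, none of them called, were Ifih1 without knockout library 2 or 5 or wild-type library 3 (range with 1 library left out -0.046 to 0.14), Ifit3 without wild-type library 3 (range -0.19 to 0.16), Oasl1 (0.35), Iigp1 (-0.096) and Bst2 (-0.017) with the evenness term, and Bst2 (-0.20) and Ifitm3 (-0.092) with the length correction. The last 2 settings were chosen after seeing the data; the cause was not tested. RLE size factors (29 genes) and no filter on low counts (35) called 0 members. At 4.85 M reads, knockout library 1 limits members of a few reads, Sp110 and Sp140.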
